A study of Mus musculus with 8 samples.

Results

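The connexin genes Gja1, Gja4, Gja5 and Gjc1 of the vessel wall were followed across the endothelial cell classes, tissues and diets of 8 single-cell RNA libraries. They were found by symbol in the newer gene list and matched to the older list by gene identifier, and all 4 of 4 were in both lists, among 30406 shared genes. Both parts of the reporter, ROSA26-eYFP+/+ and Cdh5-CreERT2+, were present in every animal, all male: a tamoxifen-activated Cre under the endothelial Cdh5 promoter switches on yellow fluorescent protein. At 6 weeks of age every group was switched to tamoxifen food for 2 weeks. From 8 weeks, for a further 12 to 13 weeks, the food was either chow with 5.8% fat or High Fat Diet with 60% fat, called HFD below. Fluorescent cells were sorted from mesentery or from epididymal adipose tissue, with the tissue of 6 mice pooled in each library, so that a library is 1 pool and no value belongs to 1 mouse. The 4 groups (each tissue on each diet) have 2 libraries each, from a first experiment (run A) and its repeat (run B).

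Connexins are membrane proteins that assemble into hemichannels, and hemichannels of neighbouring cells dock to form gap junctions, through which ions and small molecules pass directly from cell to cell. In the artery wall they couple endothelial cells along the vessel and, at myoendothelial junctions, couple endothelium to smooth muscle, which lets vasomotor responses spread. Gja5 (Cx40) and Gja4 (Cx37) are the connexins classically assigned to arterial endothelium, Gja1 (Cx43) is widespread and is found at sites of disturbed flow, and Gjc1 (Cx45) is known from smooth muscle and developing vessels. Gja4 and Gja1 are also known from lymphatic vessels and their valves.

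Total counts of unique molecular identifiers (UMIs, 1 per captured RNA molecule) ranged from 3461360 to 6714473 in the 4 run A libraries and from 18829960 to 36779289 in those of run B. After filtering, 23196 cells were used, and 17276 of them were endothelial. No connexin was used to cluster or name the cells. Names end in "-like" because they were rebuilt here from markers: 3107 cells were arterial-like, 5502 capillary-like, 3275 venous-like and 2476 lymphatic-like. The sort did not remove all other cells, and 1019 macrophage-like, 664 adipocyte-like, 628 fibroblast-like, 414 T cell-like and 363 B cell-like cells were present. Cluster 10 (800 cells) carried the mural markers Abcc9, Pdgfrb, Notch3 and Rgs5 together with endothelial markers and was left unnamed. Levels are given as CPM, the UMIs of a gene in each 1000000 UMIs of all genes in a class of 1 library, and are compared within a gene only, since the reads tag the 3' end and capture differs between genes. At most 9 cell barcodes were shared by a pair of libraries. In adipose on chow B, signal also appeared where little is expected: its 33 macrophage-like cells held Gja1 at 56.3 CPM against 5.40 to 17.8 in the other 3 libraries with at least 20 such cells, and 1 of its 6 T cell-like cells held all 6 Gja1 UMIs of that class there.

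Each of the 4 genes has its whole coding sequence in 1 exon, in the GENCODE vM21 models of build GRCm38. Gja1 lies at chr10:56377330-56402513 on the plus strand (382 codons), Gja4 at chr4:127311421-127314039 on the minus strand (333 codons), Gja5 at chr3:96904693-97077416 on the plus strand (358 codons) and Gjc1 at chr11:102799579-102819700 on the minus strand (396 codons). The 250 bases before the RefSeq start of 3 of them (build GRCm38.p6) are shown because their levels are compared between arterial-like and lymphatic-like cells below. Capitals mark every match to 5 motifs searched on both strands: AP-1 (TGAGTCA), GC box (GGGCGG), RBPJ (TGGGAA), SOX (ATTGT) and TATA box (TATAAA).
Gja5: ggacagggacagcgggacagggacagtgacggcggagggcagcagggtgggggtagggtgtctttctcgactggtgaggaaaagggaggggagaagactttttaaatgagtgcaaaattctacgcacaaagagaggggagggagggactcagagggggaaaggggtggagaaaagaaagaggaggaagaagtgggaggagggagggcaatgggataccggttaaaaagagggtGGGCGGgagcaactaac
Gja4: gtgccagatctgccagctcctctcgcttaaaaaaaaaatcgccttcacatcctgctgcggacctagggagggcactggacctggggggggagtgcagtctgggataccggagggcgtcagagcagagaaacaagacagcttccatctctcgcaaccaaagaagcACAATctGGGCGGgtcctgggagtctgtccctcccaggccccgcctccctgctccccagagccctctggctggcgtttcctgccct
Gja1: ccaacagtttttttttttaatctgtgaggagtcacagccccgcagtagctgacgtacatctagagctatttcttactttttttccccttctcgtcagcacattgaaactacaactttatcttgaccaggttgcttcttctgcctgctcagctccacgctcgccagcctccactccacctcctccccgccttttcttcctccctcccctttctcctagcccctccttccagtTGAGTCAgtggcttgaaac
The windows lie at chr3:97032152-97032401 (plus strand, inside the GENCODE span of Gja5), chr4:127314040-127314289 (minus strand) and chr10:56377050-56377299 (plus strand), and are 56.4%, 61.2% and 50.0% G or C. Gja5 and Gja4 each hold 1 GC box, as do 32.7% of the 32851 windows in the table, and Gja4 holds 1 SOX match beside it without overlap, as do 27.7% of all windows. Gja1 holds 1 AP-1 match, found in 4.46% of windows. RBPJ (21.6% of windows) and TATA box (12.4%) had no match in the 3 windows.

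Gja5 was the connexin most restricted to arterial-like cells. In run A its level there was 315 CPM in chow mesentery, 277 in chow adipose, 128 in HFD mesentery and 194 in HFD adipose. In run B it was 245, 257, 265 and 286 in the same order. The lowest of these values was above the highest Gja5 value of every other class, and arterial-like cells were highest in 8 of 8 libraries (median 261). Capillary-like cells held 0 to 30.2 (median 3.04), venous-like cells 0 to 2.38 from 22 UMIs in all, and lymphatic-like cells 2 UMIs among 7663331. T cell-like cells, which should lack it, held 0 of 1542028, which allows up to 1.95 CPM. These orders are descriptions without a test, because the classes were made by clustering the same cells.

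Gja4 was highest in the same class but was not restricted to it. Arterial-like cells held 472, 431, 533 and 402 CPM in run A (the same order of libraries) and 454, 291, 393 and 448 in run B. The next levels were in cluster 10, at 47.4 to 228 in the 6 libraries with at least 20 of its cells, and in lymphatic-like cells, at 54.4 to 264 with a median of 132. Both, taken whole, stayed below every arterial-like value, and their own ranges overlapped. Single clusters did reach the arterial-like range. Cluster 13 of the lymphatic-like class held 109 to 488, and cluster 31, an unnamed endothelial cluster of 30 cells, held 358. Capillary-like cells held 19.7 to 186 in run A, from 5 to 23 UMIs a library, and 4.71 to 18.6 in run B. Venous-like cells held 3.57 to 9.52, and T cell-like cells held 0 UMIs.

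Gja1 had a different order, with lymphatic-like cells at the top. In that order, they held 300.1, 203, 200 and 209 CPM in run A and 365, 381, 530.4 and 379 in run B. All 4 run B values were above all 4 run A values, and the median moved from 333 over 8 libraries to 206 over run A alone. Capillary-like cells followed at 81.1 to 335 (median 166) and were below lymphatic-like cells in 7 of 8 libraries. Venous-like cells (27.6 to 133, median 69.9) and arterial-like cells (7.85 to 320, median 45.4) overlapped, with venous-like cells higher in 4 of 8 libraries. Outside the endothelium, fibroblast-like cells held 22.6 to 289.

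Gjc1 did not separate the endothelial classes. Its medians were 36.2 CPM in lymphatic-like, 31.0 in arterial-like, 28.9 in venous-like and 21.6 in capillary-like cells, with ranges that overlapped between all neighbours in this order. Cluster 10, the group with mural markers, had a higher median (165), with 78.9 and 81.7 in the 2 adipose libraries of run A and 164 to 225 in the 4 libraries of run B. Its lowest value was above the highest value of the 4 named endothelial classes, 57.95 from 5 UMIs in capillary-like cells of mesentery on chow A, but not above cluster 19, an unnamed endothelial cluster, at 38.7 and 90.55 in its 2 libraries with at least 20 cells. Cluster 14, an unnamed cluster of 533 cells outside the endothelium, overlapped cluster 10 too, at 33.7 to 116 in its 4 libraries with at least 20 cells. T cell-like and B cell-like cells held 0 Gjc1 UMIs.

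**Figure D1:**
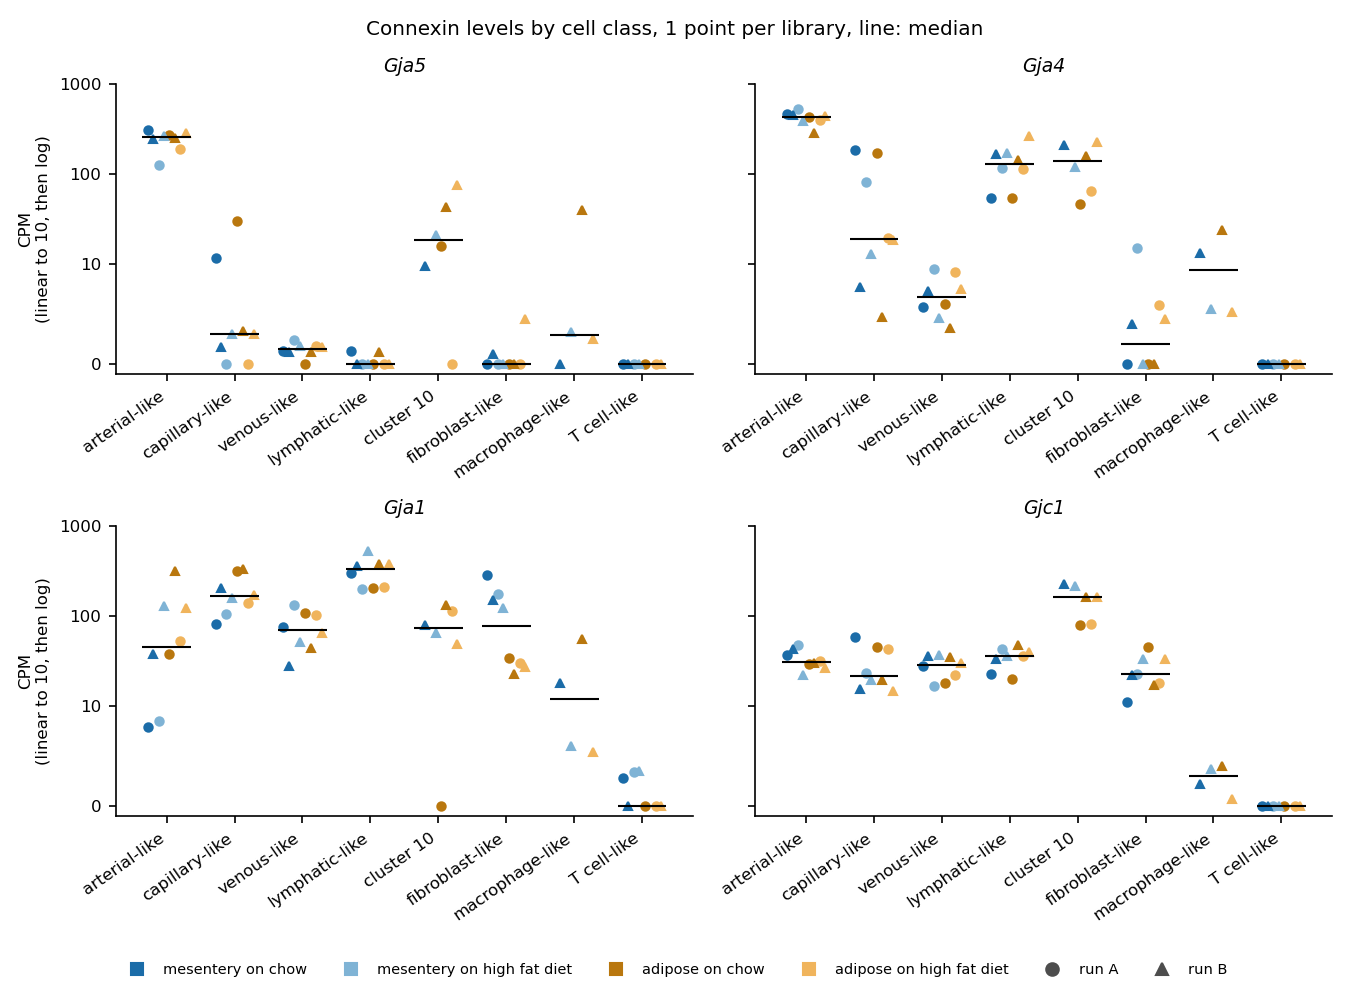
Level of each connexin in CPM (vertical axis, linear to 10 and logarithmic above) in 8 cell groups, with 1 point per library with at least 20 cells and a line at the median. Gja5 has its median of 261 in arterial-like cells and falls to 18.5 in cluster 10, Gja4 extends to lymphatic-like cells, Gja1 is highest in lymphatic-like cells and Gjc1 in cluster 10.

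The wider family added little in these cells. Of 14 other connexin genes of the Gja, Gjb, Gjd and Gje groups, each had 9 or fewer UMIs in endothelial cells, against 14083 for Gja1, 7833 for Gja4, 4042 for Gja5 and 1938 for Gjc1. Among pannexins, which form related channels that do not dock, Panx1 had 434 UMIs and medians of 3.72 to 5.27 CPM in the 4 endothelial classes.

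Genes with the most similar pattern were ranked by Pearson's r of log2 levels over 67 class and library points, centred within each library, among 11801 genes. The points share libraries and depth, so r is a description. Gkn3, Hey1 and Dll4 are among the arterial markers that named the classes, so their r is not independent of the naming. Gja5 was most like Gkn3 (0.917), which marks arterial endothelium, followed by Eps8l2 (0.916), Gm35167 (0.906), Gper1 and Egfl8 (both 0.897). Gja4 was most like St8sia6 (0.878), Arl15 (0.857), the Notch target Hey1 (0.848), Kalrn (0.816) and the Notch ligand Dll4 (0.81). Gja1 was most like Sbds (0.857), Fam189a2 (0.849), Dock9 (0.841) and the bone morphogenetic protein signal transducers Smad1 (0.84) and Smad5 (0.829), and Gjc1 was most like Adcy6 (0.832), Daam1 (0.825), Zdhhc1 (0.812), Mfge8 and Trim2 (both 0.806). Between members, r was 0.752 for Gja4 and Gja5 and 0.0242 for Gja1 and Gja5.

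Within the arterial-like class the connexins differed between 3 clusters. Cluster 5 is led by Col8a1, Hey1, Sema3g and Rbp7, cluster 8 by Gkn3, Kcne3, Alpl and Ace, and cluster 16 by Cytl1, Klk10, Mgp and Eln, the last being the elastin of large arteries. Gja5 was higher in cluster 8 than in cluster 5 in 8 of 8 libraries, with medians of 345 and 115 CPM, and the lowest value in cluster 8 (192) was above the highest in cluster 5 (167). Gja4 was higher in cluster 8 in 7 of 8 libraries, with medians of 638 and 336 and overlapping ranges. Gja1 ran the other way. It was lower in cluster 8 than in cluster 5 in 8 of 8 libraries, with medians of 18.6 and 105, and in cluster 16 it was 0 to 7.31 in the 6 libraries with at least 20 cells, below cluster 5 in all 6. Cluster 16 held Gja5 at 103 to 555 and Gja4 at 366 to 618. The clusters with the higher Gja5 medians were those with the lower Gja1 medians.

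**Figure D2:**
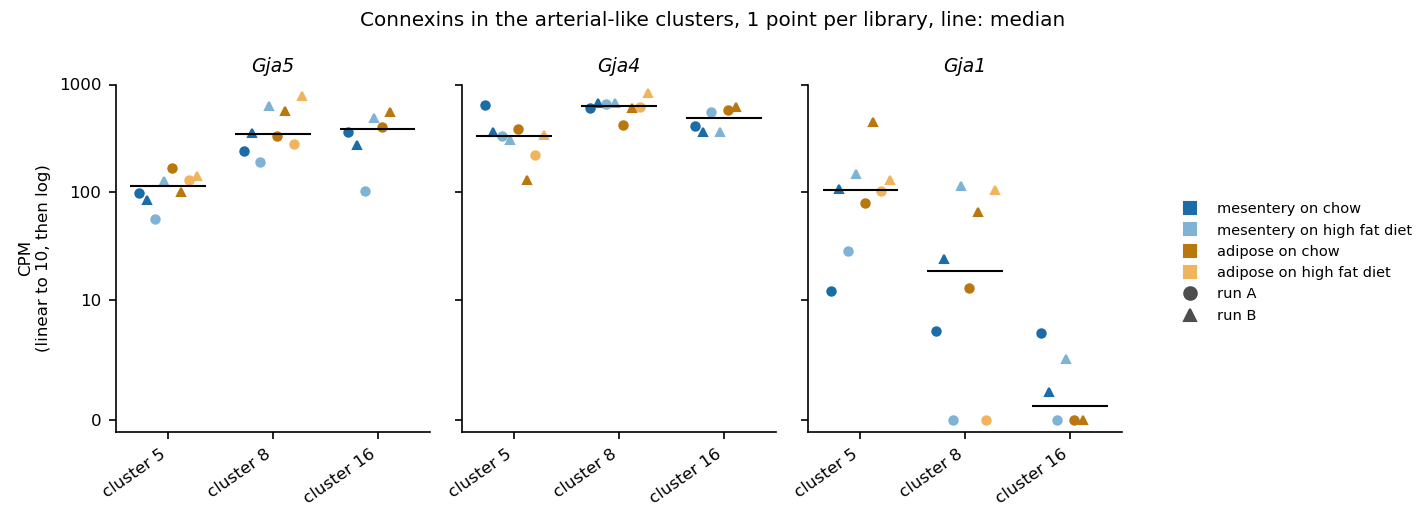
Levels of Gja5, Gja4 and Gja1 in CPM (vertical axis, linear to 10 and logarithmic above) in the 3 arterial-like clusters, with 1 point per library with at least 20 cells and a line at the median. Gja5 is higher in clusters 8 and 16 (medians 345 and 383) than in cluster 5, and Gja1 falls from cluster 5 to cluster 16, where no library exceeds 7.31.

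To ask whether single arterial-like cells hold several connexins, each of 2921 cells was thinned to 1000 UMIs. Gja4 was then detected in 22.3 to 36.9% of cells over the 8 libraries (median 34.2%), Gja5 in 8.74 to 22.0% (median 19.3%), Gja1 in 0.578 to 20.9% (median 4.98%) and Gjc1 in 2.29 to 5.83% (median 3.25%). T cell-like and B cell-like cells at the same depth gave 0 to 1.85% for any of the 4. Macrophage-like cells, in 4 libraries, gave 0 to 6.25% for Gja1 (median 0.862%), which reaches above the arterial-like median. They gave 0 to 3.125% for Gja4 and for Gja5 (medians 0.319% and 0.398%) and 0 to 0.610% for Gjc1. Gja4 was found in 29.4 to 55.8% of the cells with a Gja5 UMI in the 7 libraries with at least 10 such cells, and in 19.3 to 35.6% of those without one. Within a library it was higher among the Gja5-positive cells in 6 of these 7, with medians of 40.4% and 31.0%. Inside cluster 5 it was higher in 4 of 5 libraries (medians 29.4% and 23.8%), and inside cluster 8 in 3 of 5 (42.6% and 47.8%). Without thinning, 75.4% of Gja5-positive cells also had Gja4, at median, against 54.2% of the negative cells.

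Diet and tissue were compared with edgeR's quasi-likelihood test on counts summed per library and class, adjusted by Benjamini-Hochberg over all genes tested. The 5 contrasts (diet within each tissue, tissue within each diet, and their interaction) were tested in the 4 classes and in all endothelial cells, which gave 90 tests of the 4 connexins, Gja5 being too low to test in venous-like and lymphatic-like cells. Nothing passed: edgeR called 0 of 90, with 3 at an unadjusted p under 0.05, and DESeq2 called 0 of 90, with 2 under 0.05. Over all genes and the same 25 fits, edgeR called 0.0% and DESeq2 0.0688%. With the run as a block, which the labels support because the 2 replicates are 1 experiment and its repeat, edgeR called 2 of 90, both for Gja1 in arterial-like cells, with 15 under 0.05, where it called 0.689% over all genes and fits.

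Gja1 in arterial-like cells was the member that varied most. In mesentery it was 7.85 CPM on chow and 8.51 on HFD in run A, from 6 and 3 UMIs, and 37.6 and 131 in run B, from 109 and 412 UMIs. In adipose it was 37.9 and 52.8 in run A and 320 and 124 in run B. The run B libraries were higher in each group, adipose on chow B was highest, and the 2 diets overlapped in both tissues.

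For the diet in mesentery, the log2 change on HFD was 1.56 ± 1.16 (edgeR adjusted p of 1). After a log2 value, ± gives an approximate standard error: the absolute change divided by the square root of the F statistic of edgeR's test. With the run as a block the diet change was 1.57 ± 0.35, with an edgeR adjusted p of 0.0173. In that fit 3.06% of 10297 genes were called, which is the background for this call. The ratio of HFD to chow was 1.08 in run A (exact 95% interval 0.175 to 5.07, for counting error only) and 3.49 in run B (2.82 to 4.35), so the UMIs behind the difference were nearly all from run B. Without mesentery on HFD B the blocked log2 change was 0.034, and without mesentery on chow B or adipose on chow B the adjusted p was 0.631 and 0.0523.

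Mesentery on chow held less Gja1 in arterial-like cells than adipose on chow in both runs, with ratios of 0.207 (0.0646 to 0.585) and 0.118 (0.0958 to 0.143). The log2 difference, mesentery minus adipose, was -2.84 ± 1.19 (edgeR adjusted p of 1). With the run as a block it was -2.86 ± 0.35 with an edgeR adjusted p of 6.71e-05, where 3.64% of genes were called. Leaving out adipose on chow B or mesentery on chow B raised the blocked adjusted p to 0.477 and 0.0766, at log2 differences of -2.17 and -2.61. On HFD the ratio of mesentery to adipose was 0.161 in run A (0.0299 to 0.569) and 1.06 in run B (0.914 to 1.22). The interaction of diet and tissue was 2.52 ± 0.49 in the blocked fit (edgeR adjusted p of 0.0702), where 0.0194% of genes were called. It passed in the 4 fits that left out 1 run A library and in none of the 4 that left out 1 of run B, and each such fit leaves a group with 1 library that is assumed to vary like the others. The blocked diet change in adipose was -0.94 ± 0.33 (edgeR adjusted p of 0.927, 0.233% called), and the tissue difference on HFD was -0.35 ± 0.34 (edgeR adjusted p of 1, 0.117% called).

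The make-up of the arterial-like class also differed between the libraries. Cluster 16, the cluster with almost no Gja1, made up 59.7% (run A) and 33.0% (run B) of arterial-like cells in chow mesentery, 21.7% and 4.42% in mesentery on HFD, 10.4% and 3.33% in adipose on chow, and 1.55% and 0.638% in adipose on HFD. Summed levels of the 11 capillary markers in arterial-like cells were 380 to 1913 CPM in run A and 2771 in mesentery on chow B, against 9027 to 10540 in the other 3 run B libraries. Of the 6 adipocyte markers, 4 to 6 were at 0 in the run A libraries, and their sum was 0 to 23.3 there, 340 in mesentery on chow B, 1604 in adipose on chow B and 43.0 and 105 in the run B libraries on HFD. The part of the cluster 16 share and of the capillary and adipocyte markers in the Gja1 values was not tested.

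Within single clusters, chosen after seeing the data, the calls divided. In cluster 5 the diet change of Gja1 in mesentery was 0.45 ± 0.37 with the block (edgeR adjusted p of 1, 0.196% of genes called). The chow difference between tissues in cluster 5 was -1.97 ± 0.36 (edgeR adjusted p of 0.00212, 0.616% called). It rested on 1 and 11 UMIs in run A against 86 and 1237 in run B. Capillary and adipocyte markers also differed between the chow libraries of cluster 5. Cd300lg was 12.2 CPM in mesentery and 43.5 in adipose of run A, and 510 and 918 in run B. Adipoq was 0 in both run A libraries, and 52.8 in mesentery and 124 in adipose of run B. The part of these markers in the Gja1 difference was not tested. In cluster 8 the diet change in mesentery was 2.02 ± 0.48 (edgeR adjusted p of 0.0495, 0.534% called), from 1 and 0 UMIs in run A and 20 and 81 in run B, and the tissue difference was -1.34 ± 0.48 (edgeR adjusted p of 0.547, 0.428% called). Without the block neither call stood: the tissue difference in cluster 5 was -1.91 ± 0.95 and the diet change in cluster 8 was 1.72 ± 1.29, both with an edgeR adjusted p of 1. Without mesentery on HFD B or mesentery on chow B, the cluster 8 change was -3.61 and -0.47, and without adipose on chow B or adipose on HFD B its adjusted p was 0.0806 and 0.137. The cluster 5 tissue difference was -0.91 (adjusted p of 0.936) when adipose on chow B was left out and -3.48 (0.744) when mesentery on chow B was.

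**Figure D3:**
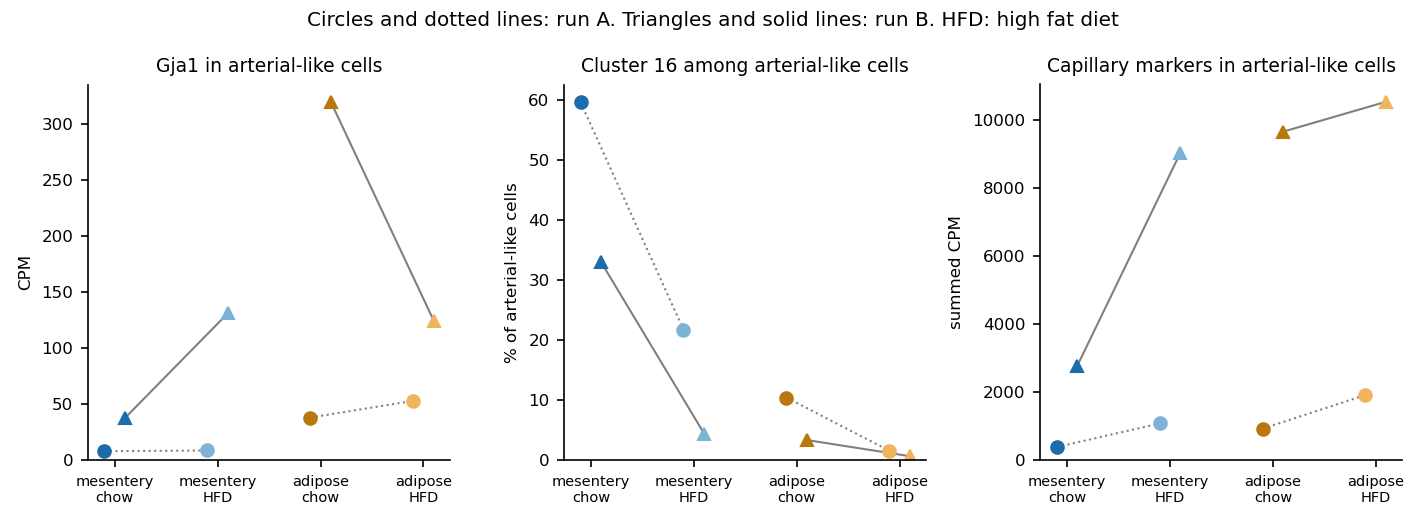
Gja1 level in arterial-like cells (left, CPM), share of cluster 16 among arterial-like cells (middle, %) and summed capillary markers in arterial-like cells (right, CPM) in the 8 libraries, with lines joining the 2 diets of a tissue within a run. Gja1 rises from 37.6 to 131 in mesentery of run B only, falls from 320 to 124 in adipose of run B, and the share of cluster 16 is lower on HFD in both tissues and both runs.

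Gja5 and Gja4 in arterial-like cells showed no difference that passed. For the diet in mesentery the blocked log2 change of Gja5 was -0.54 ± 0.28 (edgeR adjusted p of 0.514), with a ratio of 0.404 in run A (0.287 to 0.558) and 1.08 in run B (0.978 to 1.20). The direction was the opposite inside single clusters, at 0.35 ± 0.33 in cluster 5 and 0.40 ± 0.27 in cluster 8 (both with an edgeR adjusted p of 1). For the tissues on chow the class gave 0.17 ± 0.27 (mesentery minus adipose) and the clusters -0.41 ± 0.34 and -0.57 ± 0.27, with edgeR adjusted p-values of 0.946, 0.999 and 0.981. For Gja4 the blocked diet change in mesentery was -0.097 ± 0.22 (edgeR adjusted p of 0.964). Its approximate 95% interval, from the standard error, was -0.53 to 0.33. The Gja4 difference between tissues on chow was 0.47 ± 0.22 in the class, 1.14 ± 0.33 in cluster 5 and 0.33 ± 0.21 in cluster 8. The edgeR adjusted p-values of these were 0.409, 0.159 and 0.999. In adipose the diet changes were -0.096 ± 0.28 for Gja5 and 0.32 ± 0.23 for Gja4, both with an edgeR adjusted p of 1, and Gja5 was again positive inside clusters 5 (0.29) and 8 (0.25). Gjc1 gave blocked adjusted p-values of 0.529 or more in edgeR in every class and contrast.

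Among the other classes, Gja1 in capillary-like cells of adipose was 317 and 335 CPM on chow (runs A and B) and 142 and 170 on HFD. The diets did not overlap and the ratio was 0.446 (0.278 to 0.714) and 0.508 (0.475 to 0.543) in the 2 runs. The blocked log2 change was -0.95 ± 0.30, which did not pass (edgeR adjusted p of 0.13, 1.12% of genes called). The make-up of the class differed between these libraries: cluster 2 was 11.2% (run A) and 76.7% (run B) of capillary-like cells in adipose on chow, and 58.5% and 3.78% on HFD, so its share rose in the first run and fell in the second. Gja1 medians were close in the 2 main capillary-like clusters, at 203 in cluster 1 and 207 in cluster 2. These are over the 5 libraries with at least 20 cells of both, and cluster 1 was lower in 4. The part of the make-up in the Gja1 change was not tested. In venous-like cells of mesentery Gja1 was 75.3 on chow and 133 on HFD in run A, and 27.6 and 51.6 in run B, with a blocked log2 change of 0.89 ± 0.26 and an edgeR adjusted p of 0.289 (0.168% called). Its level also differed between venous-like clusters: cluster 6, led by Ackr1 and Selp, held 43.4 to 119 in the 5 libraries where both clusters had at least 20 cells, and cluster 7, led by Adgrg6 and Vwf, held 0 to 31.4, with cluster 6 higher in 5 of 5. The share of cluster 6 in venous-like cells of mesentery was higher on HFD too, at 17.2% on chow and 31.0% on HFD in run A and 27.2% and 78.8% in run B, while that of cluster 7 was lower (75.6% and 43.7%, then 65.3% and 18.8%). Fitted by itself, which was chosen once the data were seen, cluster 6 gave a blocked change of 0.60 ± 0.32 (edgeR adjusted p of 1, 0.11% called).

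The lymphatic-like cells formed 2 clusters with opposite connexin levels. Cluster 4 was led by Ccl21a, Reln and Lyve1, genes of initial lymphatic vessels, and cluster 13 by Nts, Cldn11 and Foxp2, which are markers of collecting vessels and valves. Gja4 was higher in cluster 13 in 8 of 8 libraries, with medians of 301 against 69.6 CPM. Gja1 was lower in cluster 13 in 8 of 8, at 233 against 386.

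**Figure D4:**
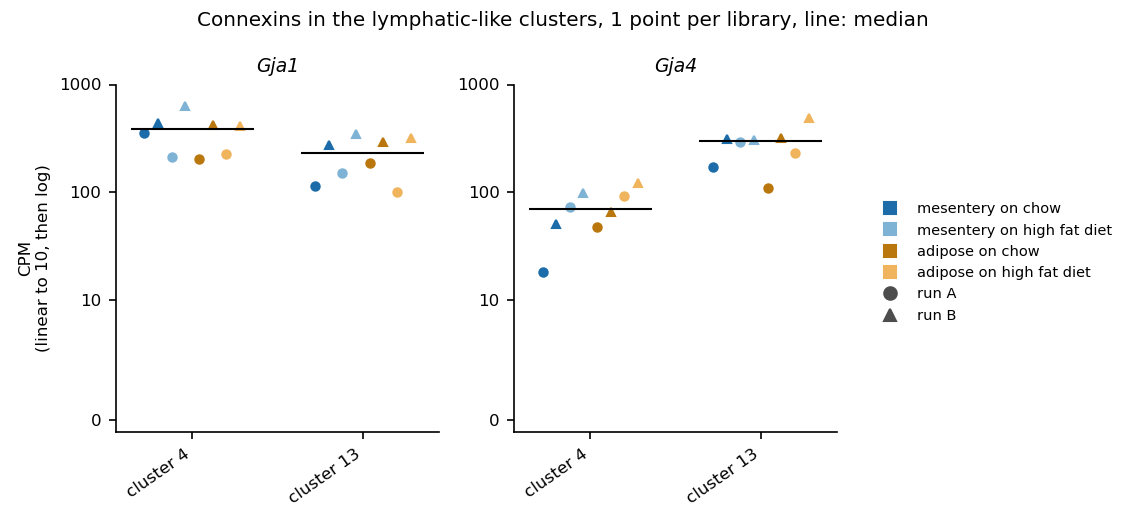
Levels of Gja1 and Gja4 in CPM (vertical axis, linear to 10 and logarithmic above) in the 2 lymphatic-like clusters, with 1 point per library and a line at the median. Gja4 is higher in cluster 13 (median 301 against 69.6), Gja1 is higher in cluster 4, and within cluster 4 the libraries on HFD lie above those on chow for Gja4.

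For Gja4 in the whole lymphatic-like class, levels were 54.4 and 168 in mesentery on chow (runs A and B), 118 and 174 on HFD, 54.7 and 145 in adipose on chow, and 114 and 264 on HFD. The blocked log2 changes were 0.51 ± 0.24 in mesentery and 0.94 ± 0.24 in adipose, with edgeR adjusted p-values of 0.359 and 0.274 (2.51% and 0.0682% of genes called). HFD was higher in each run, while the groups overlapped between runs. The share of cluster 13, where Gja4 is high, differed between runs: 12.8 to 25.6% of the class in run A and 33.3 to 43.0% in run B. Within runs it was higher on HFD in 3 of 4 pairs, at 15.8% and 25.6% in mesentery and 12.8% and 20.1% in adipose of run A and 33.3% and 43.0% in adipose of run B, and lower in mesentery of run B (41.5% and 35.9%).

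In cluster 4 alone, chosen after seeing the data, Gja4 was 18.2 and 50.7 in mesentery on chow (runs A and B) and 73.4 and 98.5 on HFD, and 47.8 and 65.7 against 92.6 and 122 in adipose. The diets did not overlap in either tissue. The ratio of HFD to chow was 4.04 (2.14 to 8.42) and 1.94 (1.24 to 3.08) in mesentery and 1.94 (1.28 to 2.97) and 1.86 (1.22 to 2.88) in adipose. In mesentery the log2 change was 1.29 (edgeR adjusted p of 0.647), and with the run as a block it was 1.33 ± 0.29 with an edgeR adjusted p of 0.00289, where 4.6% of 8002 genes were called. Without mesentery on chow A or mesentery on HFD A the blocked change was 0.92 and 1.22 and no longer passed (adjusted p of 0.218 and 0.0533). In adipose the blocked change was 0.92 ± 0.27 and did not pass (edgeR adjusted p of 0.208, 0.237% called). In cluster 13 the mesentery ratio was 1.70 in run A (1.12 to 2.63) and 0.983 in run B (0.756 to 1.27), with a blocked edgeR adjusted p of 0.902.

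Gja1 in lymphatic-like cells did not move in 1 direction with diet. The mesentery ratio was 0.666 in run A (0.558 to 0.796) and 1.45 in run B (1.27 to 1.66), and the adipose ratios were 1.03 and 0.995. Blocked log2 changes were -0.018 ± 0.22 and 0.0083 ± 0.22, with edgeR adjusted p-values of 0.987 and 0.997.

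Genes that work with these connexins were taken as 2 lists, 13 partners of gap junctions and myoendothelial junctions and 20 regulators of arterial and valve connexins. The test without the block called 0 of both lists in every class and contrast, and the counts that follow are from edgeR with the run as a block. In arterial-like cells of mesentery, 0 of 13 partners were higher and 2 lower on HFD, with a median log2 change of 0.081 against -0.016 over all genes, of which 3.06% were called. Kcnn3, a calcium-activated potassium channel of endothelial hyperpolarization, fell by 2.37 ± 0.49 on the log2 scale (edgeR adjusted p of 0.00862), and Nos3, the endothelial nitric oxide synthase, fell by 0.94 ± 0.20 (edgeR adjusted p of 0.0138). Of 20 regulators, 0 were higher and 3 lower (median 0.065): the Notch effector Hey2 by -2.10 ± 0.30, Foxc2 by -1.51 ± 0.38 and Foxc1 by -1.28 ± 0.31, with edgeR adjusted p-values of 0.000543, 0.0304 and 0.0265. All 5 calls were lost without mesentery on chow B (adjusted p of 0.105 to 0.628) and without mesentery on HFD B (0.319 to 0.684), with changes of -0.66 to -2.08 and of -0.86 to -4.00 in the same direction. Nos3 and Foxc2 were also lost without mesentery on HFD A (0.0646 and 0.0943), Foxc1 and Foxc2 without adipose on chow B (0.0678 and 0.0612) and Foxc1 without adipose on HFD B (0.0525).

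Hey2 stood at 66.7 and 70.0 CPM in mesentery on chow (runs A and B), against 19.9 and 15.3 on HFD and 14.1 to 32.0 in the 4 adipose libraries. Nos3 was 340 and 187 in mesentery on chow, 199 and 97.1 on HFD, and 76.6 to 169 in adipose. The chow libraries of mesentery were the highest in each run for both genes. On chow, arterial-like cells of mesentery exceeded those of adipose for Hey2 (1.88 ± 0.29), Kcnn3 (2.17 ± 0.46), Foxc2 (1.74 ± 0.38) and Nos3 (1.06 ± 0.20), with edgeR adjusted p-values of 0.000603, 0.00872, 0.0103 and 0.0037, which made 2 of 13 partners and 2 of 20 regulators higher and 0 lower, where 3.64% of all genes were called. The adjusted p-values were 0.266 to 0.605 when adipose on chow B was left out and 0.0555 to 0.347 when mesentery on chow B was, so no call remained in either case, and Foxc2 also missed without adipose on chow A (0.0519). Inside clusters 5 and 8, where cluster 16 takes no part, each of these calls that could be fitted was lost. For the diet in mesentery Nos3 was -0.020 and -0.43 there, Foxc1 -0.071 and 0.10, Kcnn3 -2.30 in cluster 5, and Hey2 -0.89 and Foxc2 -0.79 in cluster 8, all with an edgeR adjusted p of 1. For the tissues on chow Nos3 was 0.054 and 0.30, Kcnn3 2.07 in cluster 5, Foxc2 0.27 in cluster 8, and Hey2 turned to -0.90 in cluster 8, all with an edgeR adjusted p of 0.999. Foxc2 went the other way in venous-like cells on chow, at -1.70 ± 0.32 (mesentery minus adipose, edgeR adjusted p of 0.0154). It held 17.8 and 10.9 CPM there in mesentery (runs A and B) against 60.5 and 34.1 in adipose. Over all endothelial cells of mesentery, Foxc1 was lower on HFD, at -1.03 ± 0.15 (edgeR adjusted p of 0.049).

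In lymphatic-like cells of mesentery, 0 of 12 partners tested passed on HFD, with 3 at an unadjusted p under 0.05 (median -0.25 against 0.0043 over all genes), and 1 of 16 regulators was higher and 2 lower (median -0.23), where 2.51% of all genes were called. Nfatc1, a transcription factor of valve endothelium, rose by 1.12 ± 0.22 (edgeR adjusted p of 0.00672), from 120 and 93.0 CPM on chow to 230 and 234 on HFD. Hey1 fell by 1.71 ± 0.35 (edgeR adjusted p of 0.00963), from 67.1 and 42.0 to 11.6 and 23.3. Dll4 fell by 0.96 ± 0.25 (edgeR adjusted p of 0.0424), from 121.5 and 65.0 to 46.9 and 47.8. For all 3 genes the diets did not overlap. On chow, mesentery exceeded adipose for Nos3 (1.39 ± 0.27), Cav1 of caveolae (0.81 ± 0.20) and Hey1 (1.38 ± 0.35) in these cells, where 1.79% of all genes were called. Set beside these calls of the class, single clusters chosen after seeing the data divided in blocked fits. Nos3 on chow was 0.47 in cluster 4 and 1.31 in cluster 13 (edgeR adjusted p of 0.796 and 0.0982). Cav1 was 0.66 and 1.13 (0.0714 and 0.0408). For the diet, Nfatc1 was 1.10 and 1.205 (0.00126 and 0.163) and Dll4 -1.235 and 0.17 (0.00186 and 0.974). Hey1 in cluster 4 was -1.84 for the diet (0.000269) and 1.63 for the tissues (0.0017). Leaving out 1 library ended each of these lymphatic-like calls: without mesentery on HFD A the adjusted p was 0.0901 for Nfatc1, 0.382 for Hey1 and 0.522 for Dll4. For the tissues on chow, without adipose on chow B it was 0.0563 for Nos3, 0.211 for Cav1 and 0.293 for Hey1.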

How the data were processed

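Raw UMI counts per gene and cell were deposited by the authors as filtered matrices, 1 per library, made with Cell Ranger 3.0.2 (run A) and 5.0.0 (run B), per the file headers. The build mm10 and Seurat 4.3.0 are named in the submitters' processing notes, and Actinomycin D was used during dissociation, per the labels' protocols. Cells with at least 500 UMIs, 300 genes and at most 10% mitochondrial counts were kept (23970 of 27944 barcodes), and 774 doublets scored with Scrublet were removed, with a threshold set by loading because the automatic one marked 50. Clustering (scanpy 1.11.5, leidenalg 0.10.2, resolution 1.0) used 2000 variable genes without connexins or pannexins, with the run difference removed, and clusters were named from marker lists. Levels were computed for sets of at least 20 cells. Counts were summed per library and class and tested with edgeR 4.0.16 (R 4.3.3, TMM, filterByExpr, adjusted p under 0.05). On simulated arterial-like counts, fold changes of 4 and 8 in mesentery were recovered for 97.5 to 100% of genes. The simulation set a fixed spread between libraries and changed only genes above a minimum expected count. It therefore checks the procedure and does not give the share of such changes that would be found in these data. DESeq2 1.42.0 was an alternative. The runs pair the libraries because the labels call them repeats, and deviations from group means correlated within runs at 0.4 to 0.9 across genes over 6 pairs of groups in each of the 5 cell sets. Symbols lacking a RefSeq promoter entry (Gjc1) are named only. The 4 connexins, the 2 lists and the markers were chosen with earlier results of these data known. Some genes of the family and the lists are not reported here. Named genes are the 4 connexins, other family genes with at least 100 endothelial UMIs, at most 4 called genes per list and contrast, and the 5 genes most alike. Intervals of ratios cover counting error only. The interval of the Gja4 log2 change comes from its approximate standard error, makes no allowance for the few libraries and is therefore too narrow. The p-values measure the spread between pools.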

Additional observations from a re-analysis of the deposited data

How the results depend on the processing

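Over 70 results, 951 alternatives were computed: 790 were labelled the same, 84 lost the call, 11 gained it, 23 moved and 43 turned direction. For a log2 value, the same meant an unchanged direction and side of the threshold. For counts it meant equal or close, and for median levels and shares a shift below the standard deviation over libraries. The edgeR fit without the block called 0 of 266035 tests, so its results had no call to lose, and the 790 do not measure robustness. The causes were not tested. With the run as a replicate block the calls among the connexins went from 0 to 1 for the diet in mesentery and from 0 to 1 for the tissues on chow, and without the filter on low counts from 0 to 1 for the tissues on chow. The blocked call for the diet in mesentery was 0 at clustering resolution 0.5, 0 with a mitochondrial limit of 20%, 0 in cluster 5 alone and 2 with cluster 4 in place of the lymphatic-like class. The blocked call for the tissues on chow was 0 in cluster 8 alone. Leaving out each replicate in turn, the blocked counts ranged from 0 to 2 (diet in mesentery), 0 to 1 (diet in adipose), 0 to 2 (tissues on chow), 0 to 0 (tissues on HFD) and 0 to 1 (interaction), and the unblocked counts were 0 throughout. The share of Gja5-positive arterial-like cells with Gja4 was 56.4% when thinned to 2000 UMIs and 75.4% without thinning.

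Directions turned for these log2 values. Gja1 in arterial-like cells ranged, leaving out a replicate, from -1.44 to 3.06 (diet in mesentery), -1.71 to 1.20 (diet in adipose; -1.29 to 0.42 with the block), -3.33 to 0.45 (tissues on HFD; 0.40 in another such fit) and -0.50 to 3.99 (interaction). In cluster 8 alone it was 0.52 (0.63 with the block) for the diet in adipose and 0.0091 (0.044 with the block) for the tissues on HFD, and its blocked diet change in mesentery ranged from -3.61 to 2.13, with -0.47 without mesentery on chow B. Gja4 in lymphatic-like cells ranged from -0.20 to 1.37 and Gja1 in venous-like cells from -0.15 to 1.86 (diet in mesentery). Gja5 in arterial-like cells was 0.14 in cluster 5 and 0.39 in cluster 8 (0.35 and 0.40 with the block) for the diet in mesentery, 0.11 and 0.27 (0.29 and 0.25) for the diet in adipose, and -0.56 and -0.54 (-0.41 and -0.57) for the tissues on chow. Leaving out a replicate it ranged from -0.41 to 0.073 (-0.42 to 0.12 with the block) for the diet in adipose and from -0.14 to 0.39 (-0.26 to 0.59) for the tissues on chow. Gja4 in these cells was 0.0013 in cluster 8 for the diet in mesentery, and ranged from -0.38 to 0.21 (-0.23 to 0.059 with the block) there and from -0.091 to 0.64 (-0.026 to 0.58) for the diet in adipose. With the block, Foxc1 was 0.10 in cluster 8, Dll4 0.17 in cluster 13 and Hey2 -0.90 in cluster 8 (tissues on chow). Run A rests on few UMIs for Gja1 in arterial-like cells (3 to 15 a library), so differences there were not detectable below several-fold.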

Other observations

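Fibroblast-like cells, which the sort was meant to leave out, held more Gja1 in every mesentery library than in any adipose library, a comparison chosen after the values were seen. In mesentery they held 289 CPM in run A and 149.8 in run B on chow, and 175 and 122.5 on HFD, and in adipose 33.9 and 22.6 on chow and 29.7 and 27.0 on HFD. The means were 184 ± 73.1 (SD, n = 4) and 28.3 ± 4.74 (SD, n = 4). No p-value is given, because the comparison was chosen from these same values. The adipose values rest on 4 to 12 UMIs a library. The class joins clusters that lie mostly in different tissues: cluster 22 had 246 of its 266 cells in the 3 mesentery libraries with at least 20 of them, where it held 177 to 339, and cluster 25 had 225 of its 227 cells in the 4 adipose libraries, where it held 0 to 28.0.

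Gjb5, a connexin of epithelial cells, had 224 UMIs, all of them outside the endothelial cells. Cluster 19, an unnamed endothelial cluster that carries Esm1, held both Gja1 (239 and 117 CPM) and Gja4 (204 and 202) in mesentery and adipose on chow of run B, the 2 libraries with at least 20 of its cells, with Gja5 at 18.8 and 21.3.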
